A study of Mus musculus with 32 samples.

Results

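The 33 genes described here encode proteins of homologous recombination and of the Fanconi anemia pathway of DNA repair. They were taken as a list of symbols and mapped to Ensembl gene identifiers through the GENCODE annotation. Of the 33, 32 were in the juvenile gene table, which holds genes reaching 3 TPM (transcript abundance scaled to the same total in every sample) in at least 1 mouse. The other member, Fancb on the X chromosome, lay between 0.280 and 1.47 TPM in the 28 juvenile mice and entered no test. All 33 were in the separate table of adult cells. Rmi2 reached 3 TPM in mice of 18 dpp alone, so that its entry in the gene table rests on the age at which it was highest.

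Poly-A RNA was sequenced from samples labelled as germ cells of male C57BL/6J mice at 8 days after birth (n = 3; 8 dpp, days post-partum) and every 2 days from 10 to 18 dpp (n = 5 at each age), and each juvenile mouse was its own sample. The authors sampled 5 mice at 8 dpp too and left out 2 that matched others of that age poorly. The spread at 8 dpp is thus that of the mice kept. The cells came from seminiferous tubules freed with Liberase and washed to remove interstitial cells. The 4 adult samples, of C57BL/6J males too, were pachytene and diplotene spermatocytes enriched by STA-PUT sedimentation, each from 6 mice of 9 weeks.

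In a cell with a DNA double-strand break, the ends are cut back to single strands by nucleases, a single strand invades an intact template with the help of several proteins, and is extended on it before the joint molecules are dissolved or cut. The Fanconi anemia proteins sense crosslinks between DNA strands, attach ubiquitin to FANCD2 and FANCI, and hand the lesion to nucleases and to homologous recombination. Both sets of proteins serve dividing cells such as spermatogonia, and several of them also act on the programmed breaks that spermatocytes make and repair during meiotic prophase.

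All levels are TPM, which corrects for transcript length, so that levels of different genes can be set side by side. TPM carries no read numbers, the depth of each library is unknown, and the errors given are the spread between mice. Fold changes are differences of log2(TPM + 1) between ages from limma, which understate changes of genes at low levels, and adjusted p-values (Benjamini-Hochberg, over all genes of the table) under 0.05 are called past the threshold. A p above it does not show that levels were equal. Shares of all genes called by limma are at the adjusted p alone, so counts at an unadjusted p have no such share beside them. Any 2 mice of an age (53 pairs) correlated with r from 0.947 to 0.984 across genes, which are not independent. Barcodes in the titles of the libraries of 8 to 12 dpp recur in those of 14 to 18 dpp, which makes 2 sets of libraries. The comparisons of 14 with 12 dpp and of 18 with 8 dpp cross between the 2 sets, as does that of transcript shares between 8 and 10 dpp and 16 and 18 dpp, and in these comparisons by themselves the set and the age cannot be told apart.

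The means of the 32 measured members over the 28 mice ran from 1.97 TPM for Rmi2 to 45.8 TPM for Slx4, and 20 of the 32 lay above the median of all genes in the table. That median was 13.1 TPM, against 16.3 TPM for the members. Rbbp8 (40.3 TPM), Fance (40.02 TPM), Fancg (39.7 TPM) and Rad54l (35.2 TPM) followed Slx4 in this order of means over all ages. The order differs by age. At 8 dpp Fance (49.0 TPM), Fanca (39.5 TPM), Rbbp8 (37.6 TPM) and Rad54l (32.1 TPM) lay above Fancg (21.1 TPM) and Slx4 (18.2 TPM), and the places of Slx4 and Fancg rest on 18 dpp (122 and 93.7 TPM). Exons of 17 members share bases with another annotated gene, on the opposite strand in each case but that of Rad54b and Fsbp. A strand-specific protocol was not given in the sources used here, so the levels of such pairs are uncertain, as for Rmi1 with 330 bases shared with Hnrnpk (896 TPM), Fanci with 921 bases shared with Polg (72.2 TPM) and Rad54l with 1184 bases shared with Lrrc41 (114 TPM).

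Levels differed among the 6 ages for 19 of the 32 members (limma F test), compared with 77.6% of all genes tested. From 8 to 18 dpp, 14 members rose, against 31.8% of all genes, and 3 fell, against 36.3% of all genes. The largest rises were those of Slx4, Fancg, Xrcc2, Rmi1, Rad51c and Rmi2, and the falls were those of Fance, Fancf and Fanca. Without adjustment, 15 members were higher and 3 lower at p under 0.05 (limma), with no share of all genes at hand for that threshold. All mice of 18 dpp lay above all mice of 8 dpp for 12 members, against 29.0% of all genes, and below them for the 3 members that fell, against 32.0% of all genes. In these mixed cells, fewer cells of a type and less RNA per cell cannot be told apart.

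**Figure D1:**
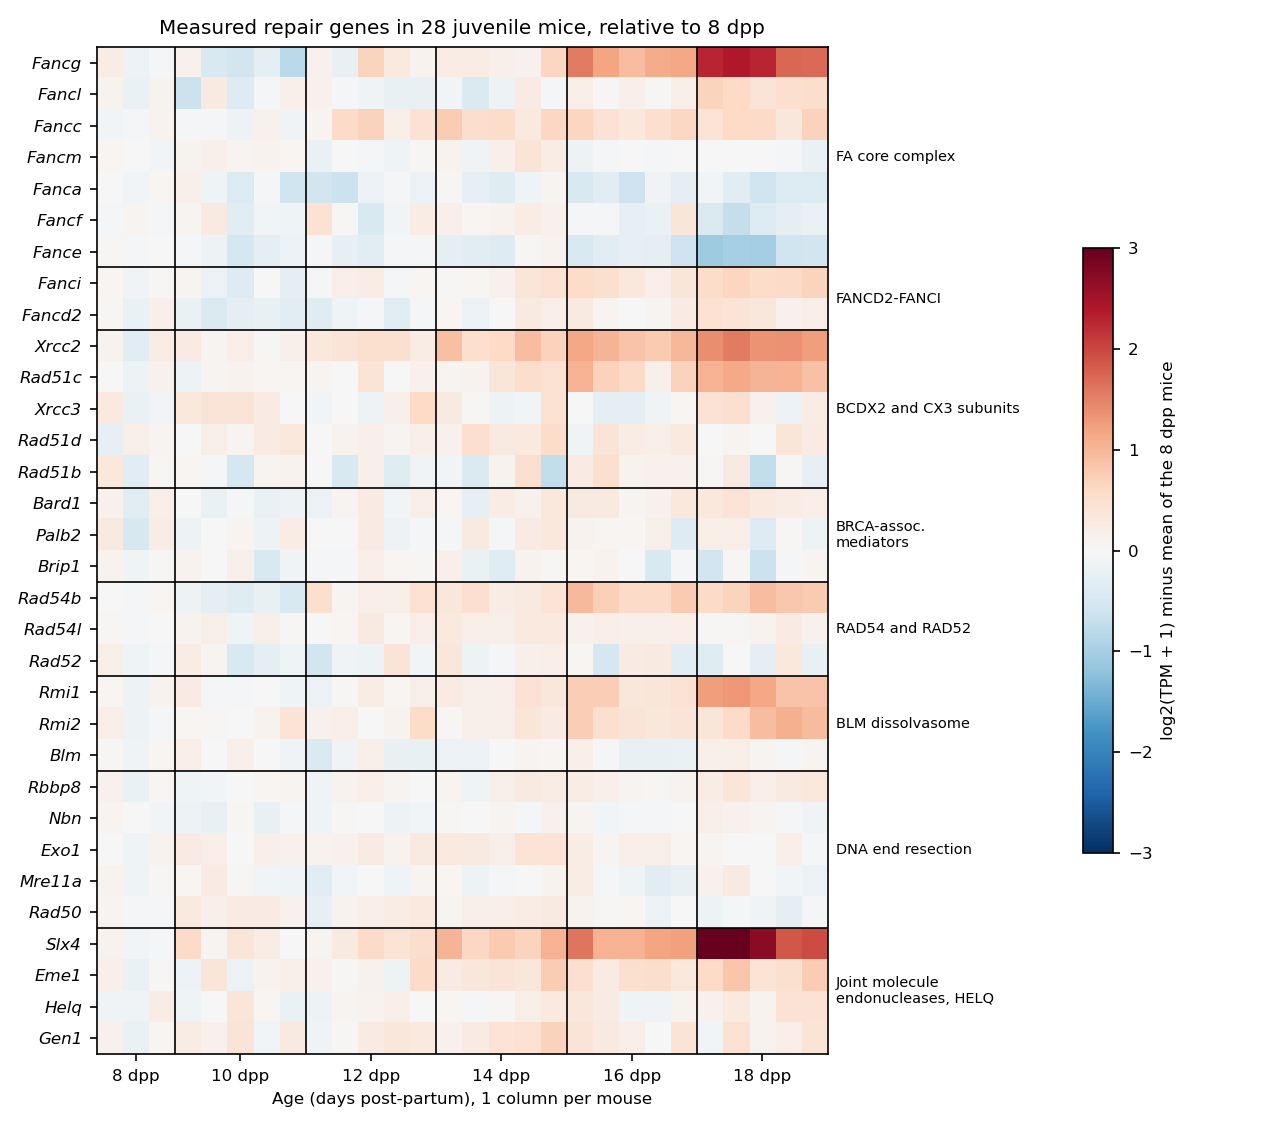
Heat map of 32 repair genes, grouped by role, in each of the 28 mice ordered by age (columns), with color for the difference of log2(TPM + 1) from the mean of 8 dpp. Slx4, Fancg and Xrcc2 carry the strongest color at 16 and 18 dpp, Fance is lowest at 18 dpp, and the pale lines of the remaining genes include 11 whose sign changes under another scaling, selection of mice or removal of a mouse.

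The size of these changes depends in part on how mice are scaled. The median change of all genes from 8 to 18 dpp was -0.09 on the log2 scale and that of the members 0.21, and 25 of the 32 members lay above the median of all genes. With median-of-ratios factors the median of all genes moved by 0.14, and with quantile normalization by -0.17. The members were then split into 21 higher and 1 lower (95.5% higher) and into 13 higher and 6 lower (68.4% higher), compared with 82.4% higher in the values as given. Of all genes called, 46.7% were higher in the values as given, 55.9% with median-of-ratios factors and 37.7% with quantile normalization, so the members' split moved in the same directions as that of all genes. Median-of-ratios factors divide all genes of a mouse by the same number. A change relative to the median of all genes is thus nearly fixed in advance under these factors, and keeping it is not a check. By that measure, the changes of 5 of the 6 leading members hardly moved. For Slx4 this difference was 2.67 in the values as given, 2.70 with median-of-ratios factors and 2.68 with quantile normalization. For Fancg it was 2.17, 2.21 and 2.20 in the same order, for Xrcc2 1.48 in the values as given and 1.51 with quantile normalization, and in the first order again for Rmi1 1.18, 1.21 and 1.23 and for Rad51c 1.12, 1.15 and 1.18. Rmi2, the other of the 6, went from 0.87 to 0.86 and 0.68. Of 11 members whose sign changed under some alternative, 9 kept their sign relative to that median under both scalings (Fancm by 1.9e-04 with quantile normalization), and Rad50 and Rad52 did not. Fance remained below the median of all genes, by -0.76, -0.73 and -0.66.

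Calls of the F test over the 6 ages moved for several members as well. Fancf did not pass with median-of-ratios factors (limma adjusted p = 0.329) or without mouse 1, 2 or 3 of 18 dpp (0.0590, 0.110 and 0.0529). Bard1, Rmi2 and Rbbp8 did not pass with quantile normalization (limma adjusted p = 0.168, 0.146 and 0.122). In the other direction, Blm passed with median-of-ratios factors (limma adjusted p = 0.00322) and without mouse 3 of 12 dpp (0.0277), Nbn with those factors (0.00595), without mouse 3 of 10 dpp (0.0454) and without mouse 5 of 18 dpp (0.0425), and Helq with those factors (0.00323). Fancm passed with quantile normalization (limma adjusted p = 6.2e-04) and without mouse 2 of 14 dpp (0.0126), and Fanca (0.0399) and Xrcc3 (0.0327) with quantile normalization. With mice 1 to 3 of each age alone, Fancf (0.0818), Rad54l (0.163), Exo1 (0.130), Bard1 (0.124) and Rbbp8 (0.0839) did not pass and Xrcc3 (limma adjusted p = 0.0116) did. Fancm also passed with no filter (limma adjusted p = 0.0435) and with no trend in the variance (0.0220). Each of these calls thus depends on the scaling, the filter, the fit or the choice of mice.

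**Figure D2:**
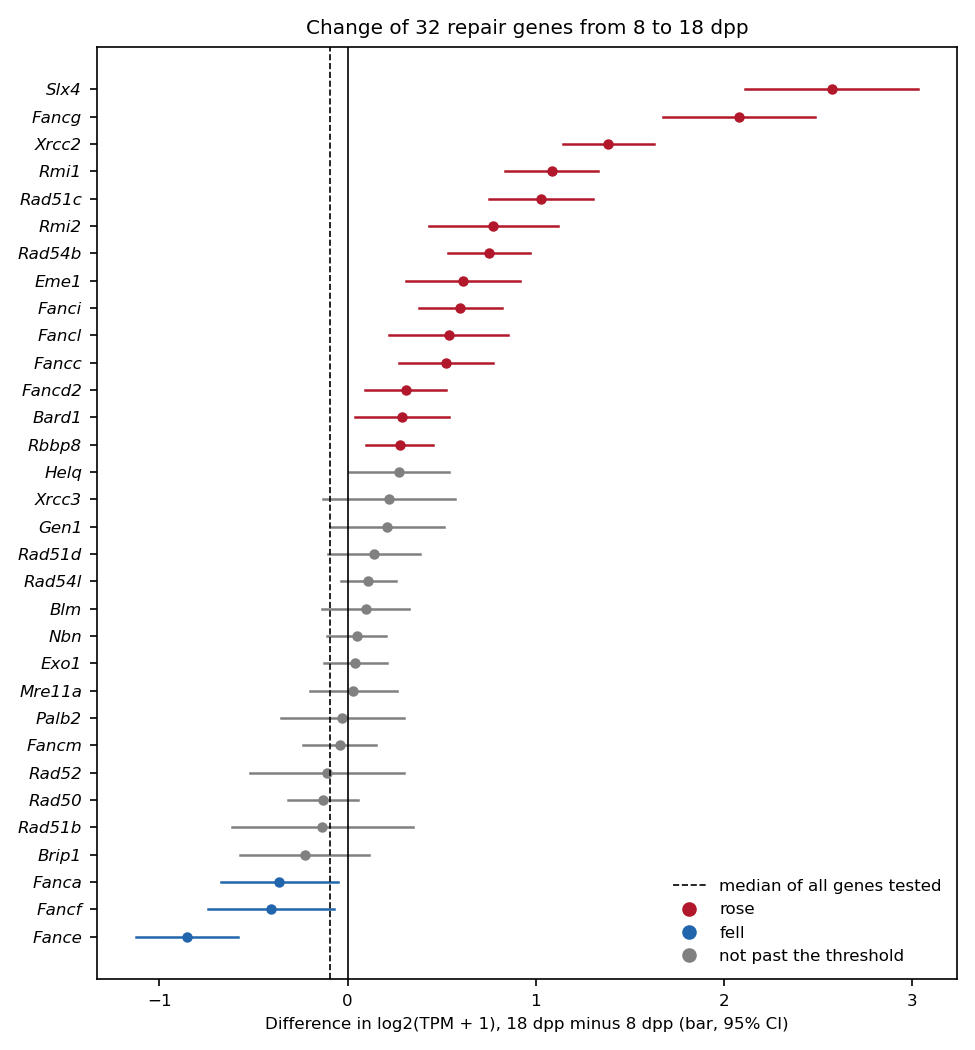
Difference of log2(TPM + 1) between 18 and 8 dpp for each of 32 repair genes (points) with its 95% confidence interval (bars), in order of size and colored by the limma result, with the median of all genes as a dashed line. Slx4 and Fancg lie farthest from the remaining genes. The falls of Fancf and Fanca do not pass the threshold with median-of-ratios factors. The signs of 5 genes near 0 flip with those factors and of 6 with quantile normalization. All of these but Rad50 and Rad52 stay on their side of the median of all genes, which median-of-ratios factors nearly fix in advance.

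The makeup of the samples moved over the same ages. Of 10 pachytene and diplotene marker genes, 9 were in the gene table and all 9 rose from 8 to 18 dpp. This count rests in part on the filter. Spag6 reached 3 TPM in mice of 18 dpp alone and Pgk2 in mice of 16 and 18 dpp alone. Hist1h1t, the marker left out, never exceeded 1.24 TPM in a juvenile mouse and entered no test. Its mean TPM was 0.087 in the mice of 8 dpp, 0.502 in those of 12 dpp and 0.398 in those of 18 dpp. The summed levels of all 10 markers, led by Ldhc at 18 dpp, were 29.8, 25.5 and 34.7 TPM in the 3 mice of 8 dpp. They were 1920.4, 1037, 893, 891 and 1495 TPM in the mice of 16 dpp and 4513, 4611, 4374, 2502 and 2369 TPM in mice 1 to 5 of 18 dpp. At 10 dpp the sums ran from 24.96 to 30.1 TPM, at 12 dpp from 62.1 to 138 TPM and at 14 dpp from 134 to 245 TPM, with Pgk2 at 0 in all mice of 8 dpp and Hist1h1t in all of 10 dpp. All 6 leptotene and zygotene markers, led by Sycp3, rose, with sums of 425, 290.3 and 415 TPM at 8 dpp and 1039, 1093, 1186, 1139 and 1219 TPM at 18 dpp. All 8 spermatogonial markers, led by Uchl1, fell, from sums of 1257, 1116 and 1239 TPM to 496, 509, 514, 668 and 702 TPM. Of 8 Sertoli markers 7 fell and 1 rose, and their sums, to which Clu gave 73.6% at 8 dpp, were 7158, 7825 and 6941 TPM at 8 dpp and 3317, 3271, 3409, 4198 and 4255 TPM at 18 dpp. The part of these markers in the changes of the repair genes was not tested.

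Markers of germ cells in general were present at every age, with sums of Ddx4, Dazl, Mael and Tdrd1 of 691, 556 and 685 TPM at 8 dpp and 1707, 1707, 1711, 1397 and 1403 TPM at 18 dpp, and 3 of the 4 rose. Among other cell types, 3 of 6 Leydig markers rose (led by Insl3, sums 175 to 198 TPM at 8 dpp and 169 to 472 TPM at 18 dpp), and 1 of 5 peritubular markers fell (led by Acta2, 1051 to 1160.0 and 524 to 1034 TPM). Of 5 macrophage markers 4 rose (led by Lyz2, 30.5 to 41.6 and 51.0 to 99.7 TPM), and of 4 endothelial markers 1 rose and 1 fell (led by Cdh5, 50.2 to 56.6 and 31.8 to 65.2 TPM). For 5 red blood cell genes limma gave 0 calls in either direction, and also 0 at an unadjusted p under 0.05 (sums 243 to 681 and 249.8 to 367 TPM). The 6 spermatid markers, none of them in the gene table, summed to 2.25, 6.44, 2.92, 2.57 and 0.250 TPM at 18 dpp, and Prm1 and Prm2 were at 0 in every mouse from 10 to 16 dpp. The part of these markers in the results was not tested either.

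Promoter windows of 300 bases, 250 before and 50 after a start site, were at hand from RefSeq (GRCm38.p6) for 24 of the 33 members, 28 windows in all. Windows of 3 members that rose (Fancg, Rad51c and Rmi1) and of the member with the largest fall (Fance) are shown as examples of genes that moved in opposite directions. They lie at chr4:43010252-43010551 on the minus strand, chr11:87404905-87405204 on the minus strand, chr13:58401998-58402297 on the plus strand and chr17:28313280-28313579 on the plus strand, all in GRCm38.p6. The start sites of the Rad51c and Rmi1 windows are those of the GENCODE gene, and those of Fance and Fancg lie 11 and 205 bases from it. Each is written 5′ to 3′ on the gene's strand, with its start site at base 251, and capitals mark the letters searched on both strands.
Fancg: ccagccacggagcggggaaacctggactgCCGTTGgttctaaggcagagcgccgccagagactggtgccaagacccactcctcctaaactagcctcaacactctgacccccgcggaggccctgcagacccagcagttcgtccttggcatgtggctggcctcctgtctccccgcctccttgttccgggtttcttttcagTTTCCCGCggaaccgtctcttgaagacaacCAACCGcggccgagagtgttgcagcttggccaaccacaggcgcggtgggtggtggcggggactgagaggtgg
Rad51c: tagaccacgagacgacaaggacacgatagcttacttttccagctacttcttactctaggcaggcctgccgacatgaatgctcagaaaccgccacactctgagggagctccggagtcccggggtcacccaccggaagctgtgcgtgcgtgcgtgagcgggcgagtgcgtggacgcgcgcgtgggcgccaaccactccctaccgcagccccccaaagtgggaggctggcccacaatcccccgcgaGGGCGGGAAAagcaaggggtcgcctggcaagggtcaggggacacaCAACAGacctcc
Rmi1: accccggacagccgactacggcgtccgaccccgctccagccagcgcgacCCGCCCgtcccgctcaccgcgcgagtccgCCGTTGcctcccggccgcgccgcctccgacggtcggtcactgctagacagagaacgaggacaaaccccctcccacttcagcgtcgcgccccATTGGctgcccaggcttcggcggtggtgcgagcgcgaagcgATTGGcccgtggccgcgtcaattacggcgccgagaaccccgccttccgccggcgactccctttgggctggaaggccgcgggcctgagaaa
Fance: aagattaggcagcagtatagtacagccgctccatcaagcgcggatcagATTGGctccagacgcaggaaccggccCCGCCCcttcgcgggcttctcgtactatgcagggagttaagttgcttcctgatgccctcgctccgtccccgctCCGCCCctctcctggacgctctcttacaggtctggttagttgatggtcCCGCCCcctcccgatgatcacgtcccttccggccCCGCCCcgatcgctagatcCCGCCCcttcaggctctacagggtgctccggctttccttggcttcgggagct
The letters searched were those of MYB (TAACNG or CAACNG), E2F (TTTNNCGC), the CCAAT box (CCAAT), the GC box (GGGCGG), the cAMP response element (TGACGTCA) and NRF1 (GCGCATGC). The Fancg window has MYB letters at bases 30 to 35 and 229 to 234 and E2F letters at 199 to 206. The Rad51c window has E2F letters at 246 to 253, which overlap a GC box at 244 to 249, and MYB letters at 289 to 294. The Rmi1 window has a GC box at 50 to 55, MYB letters at 79 to 84 and CCAAT boxes at 170 to 174 and 211 to 215. The Fance window has neither MYB nor E2F letters in these forms, and holds a CCAAT box at 49 to 53 and 5 GC boxes between bases 75 and 254. The windows of Slx4, Fancc and Eme1, which also rose, have neither MYB nor E2F letters either, and start 2092, 65533 and 221 bases from the GENCODE start of their genes.

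Set against all 32851 RefSeq windows of the same length, the windows of the members held GC boxes in 71.4% (20 of 28) against 35.7%, and CCAAT boxes in 64.3% (18 of 28) against 37.4%. E2F letters were in 21.4% (6 of 28, of Bard1, Brip1, Fancg, Rad51c and Rmi1, for Rmi1 in its window not shown) against 5.17%. MYB letters were in 42.9% (12 of 28) against 49.7%. Of the 11 members with MYB letters, Fancg, Fanci, Fancl, Rad51c and Rmi1 rose from 8 to 18 dpp, while Blm, Gen1, Helq, Palb2, Rad52 and Rad54l did not pass the test, nor did Brip1 with its E2F letters. NRF1 letters were in 7.14% (2 of 28) against 2.71% and the cAMP response element in 3.57% (1 of 28, the Rad51c window not shown) against 1.79%. These shares describe letters in the windows and were not tested, and a match is a description, not a site.

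The Fanconi core complex is a ubiquitin ligase that acts on FANCD2 and FANCI. Of its 7 measured members 3 rose from 8 to 18 dpp (Fancg, Fancc and Fancl), against 31.8% of all genes, and 3 fell (Fance, Fancf and Fanca), against 36.3%. The same shares of all genes apply beside the counts of the groups that follow. Fancg (ENSMUSG00000028453, chr4:43002343-43010506 on the minus strand) encodes a scaffold subunit. In TPM, the 3 mice of 8 dpp had 24.6, 18.4 and 20.3. The 5 mice of 10 dpp had 22.8, 15.1, 14.0, 16.9 and 11.5, those of 12 dpp 23.0, 17.8, 33.8, 25.8 and 22.5 and those of 14 dpp 24.6, 24.8, 23.2, 23.2 and 33.4. At 16 dpp the levels were 63.5, 48.8, 40.5, 46.5 and 48.4, and at 18 dpp 106, 114, 106, 72.0 and 70.3. Its mice of 16 dpp lay above those of 14 dpp and its mice of 18 dpp above those of 16 dpp, with mice 1 to 3 of 18 dpp above mice 4 and 5. The mean went from 21.1 ± 3.19 TPM at 8 dpp to 93.7 ± 20.9 TPM at 18 dpp, a ratio of 4.44 (log2 fold change 2.08, SE 0.20, limma adjusted p = 4.5e-10).

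Fance (ENSMUSG00000007570, chr17:28313519-28326572 on the plus strand), which encodes the subunit that binds FANCD2, went the other way. Mice 1 to 3 of 8 dpp had 50.6, 47.3 and 49.1 TPM. Mice 1 to 5 had 47.7, 43.7, 33.9, 40.8 and 43.3 TPM at 10 dpp, 47.5, 41.5, 38.3, 48.1 and 47.7 TPM at 12 dpp and 39.6, 38.6, 37.5, 50.3 and 53.2 TPM at 14 dpp. The last ages had 35.5, 39.3, 40.9, 40.1 and 31.4 TPM (16 dpp) and 23.0, 23.9, 23.2, 31.9 and 32.9 TPM (18 dpp). All mice of 18 dpp were below all of 8 dpp, while mice 4 and 5 of 18 dpp overlapped with the lowest mouse of 16 dpp. The mean was 49.0 ± 1.66 TPM at 8 dpp and 27.0 ± 4.98 TPM at 18 dpp, a ratio of 0.551 (log2 fold change -0.85, SE 0.13, limma adjusted p = 2.2e-06). At 18 dpp, Fance was lowest in mice 1 to 3, which had the higher Fancg and pachytene and diplotene marker levels, and the relation was not tested.

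Fancf (ENSMUSG00000092118, chr7:51860577-51862267 on the minus strand) encodes an adaptor subunit and shares 15.0% of its exon bases with Gas2 on the opposite strand. Its levels at 8 dpp were 6.23, 6.84 and 6.06 TPM. At 10 dpp they were 6.76, 7.95, 4.83, 5.96 and 5.77 TPM, at 12 dpp 8.92, 6.51, 4.37, 6.01 and 7.57 TPM and at 14 dpp 7.18, 6.67, 6.87, 7.53 and 7.04 TPM. The mice of 16 dpp had 6.08, 6.11, 5.20, 5.47 and 8.47 TPM and those of 18 dpp 4.45, 3.5, 4.58, 5.04 and 5.39 TPM. The mice of 8 and 18 dpp did not overlap, and the means were 6.38 ± 0.410 and 4.59 ± 0.716 TPM (log2 fold change -0.41, SE 0.16, limma adjusted p = 0.0290). The fall did not pass the threshold with median-of-ratios factors (-0.26, limma adjusted p = 0.165). Nor did it pass without mouse 1 or 2 of 8 dpp (-0.42 and -0.36) or mouse 2 of 18 dpp (-0.33), with limma adjusted p-values of 0.0558, 0.0969 and 0.0802, or with no filter (0.0528). With quantile normalization the fall was larger (-0.66).

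Fanca (ENSMUSG00000032815, chr8:123268300-123318576 on the minus strand), which encodes the largest scaffold of the complex, had broad spreads. In TPM, the 3 mice of 8 dpp had 39.8, 37.4 and 41.2. The 5 mice of 10 dpp had 43.9, 36.3, 29.6, 38.0 and 25.9, those of 12 dpp 26.5, 24.9, 34.9, 37.8 and 35.1 and those of 14 dpp 40.2, 33.3, 30.3, 36.0 and 42.0. At 16 dpp the levels were 28.5, 31.2, 25.4, 36.5 and 32.1, and at 18 dpp 37.1, 31.7, 25.9, 29.2 and 29.5. All mice of 18 dpp lay below the lowest of 8 dpp, whereas at 10 and 14 dpp single mice were above every mouse of 8 dpp. The means were 39.5 ± 1.93 and 30.7 ± 4.16 TPM (log2 fold change -0.36, SE 0.15, limma adjusted p = 0.0368), and the F test over the 6 ages did not pass (limma adjusted p = 0.138). The call was lost with no filter (limma adjusted p = 0.0825), with mice 1 to 3 of each age alone (-0.33), with median-of-ratios factors (-0.19, limma adjusted p = 0.255), without mouse 1, 2 or 3 of 8 dpp (-0.35, -0.40 and -0.33) and without mouse 3, 4 or 5 of 18 dpp (-0.30, -0.35 and -0.35).

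Among the other core members, Fancc, another scaffold subunit, had means of 13.6, 13.2, 18.5, 20.5, 19.8 and 20.1 TPM at 8 to 18 dpp in order of age, so that its rise (log2 fold change 0.52, limma adjusted p = 4.5e-04) lay mainly between 10 and 12 dpp. Fancl, the catalytic ubiquitin ligase, had 12.8, 11.9, 11.9, 12.0, 13.8 and 18.9 TPM and stepped up at 18 dpp (log2 fold change from 8 dpp 0.54, limma adjusted p = 0.00328). For both, the mice of 18 dpp lay above those of 8 dpp. Fancm, the helicase that brings the complex to DNA, had 7.76, 8.39, 7.36, 8.80, 7.46 and 7.51 TPM, and its log2 difference from 8 to 18 dpp of -0.04 did not pass (limma adjusted p = 0.701) and became 0.12 with median-of-ratios factors and -0.26, past the threshold, with quantile normalization, and 0.01 with mice 1 to 3 of each age alone. Fancb, which encodes another core subunit, had means of 0.847, 1.09, 0.972, 0.908, 1.06 and 0.744 TPM, the lowest of all members.

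**Figure D3:**
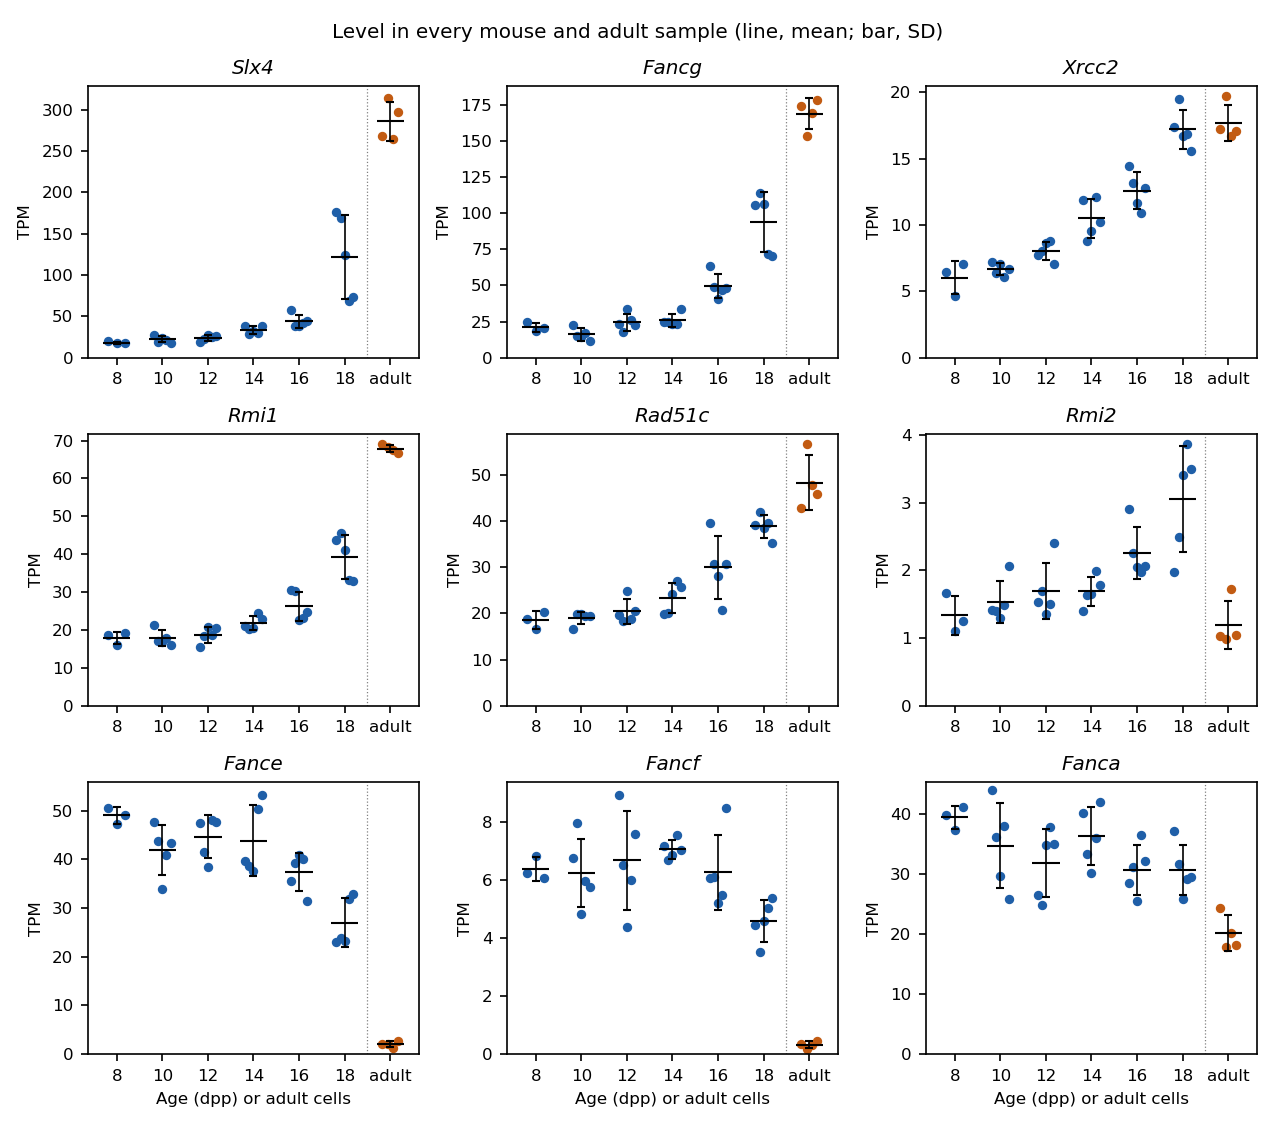
Levels (TPM) of the 6 genes with the largest rises and the 3 that fell from 8 to 18 dpp, in every juvenile mouse by age (dpp) and in the 4 adult samples, with the mean and SD of each group. Slx4 and Fancg are highest in adult cells, Fance and Fancf are lowest there, and the falls of Fancf and Fanca lose the threshold with median-of-ratios factors.

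FANCD2 and FANCI form the clamp that is ubiquitinated on DNA. Both genes rose from 8 to 18 dpp. Fanci had means of 17.5, 15.8, 18.7, 20.6, 23.2 and 27.1 TPM over the 6 ages (log2 fold change 0.60, SE 0.11, limma adjusted p = 2.0e-05), and its mice of 18 dpp lay above those of 8 dpp. Fancd2 had means of 28.3, 22.7, 24.97, 29.9, 31.3 and 35.2 TPM, with the lowest level at 10 dpp (log2 fold change from 8 to 18 dpp 0.31, SE 0.11, limma adjusted p = 0.0118). Its mice of 8 dpp (24.5 to 31.4 TPM) and 18 dpp (30.9 to 39.0 TPM) overlapped, and without mouse 2 of 8 dpp the change was 0.21 (limma adjusted p = 0.116), against 0.48 with median-of-ratios factors.

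Rad51b, Rad51c, Rad51d, Xrcc2 and Xrcc3 encode the subunits of the BCDX2 and CX3 complexes of homologous recombination, and 2 of the 5 rose. Xrcc2 (ENSMUSG00000028933, chr5:25689812-25705825 on the minus strand) is a subunit of the complex with RAD51B, RAD51C and RAD51D. Mice 1 to 3 of 8 dpp had 6.43, 4.61 and 7.04 TPM. Mice 1 to 5 had 7.18, 6.41, 7.02, 6.10 and 6.70 TPM at 10 dpp, 7.71, 8.02, 8.65, 8.77 and 7.07 TPM at 12 dpp and 11.9, 8.78, 9.52, 12.1 and 10.2 TPM at 14 dpp. The last ages had 14.5, 13.1, 11.6, 10.9 and 12.8 TPM (16 dpp) and 17.4, 19.5, 16.7, 16.9 and 15.6 TPM (18 dpp). The age means increased at each step, of which the last alone passed the test, and the mice of 14 dpp lay above those of 12 dpp and the mice of 18 dpp above those of 16 dpp. Its means were 6.03 ± 1.26 TPM at 8 dpp and 17.2 ± 1.44 TPM at 18 dpp, a ratio of 2.85 (log2 fold change 1.39, SE 0.12, limma adjusted p = 6.1e-11).

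Rad51c (ENSMUSG00000007646, chr11:87376645-87404954 on the minus strand) belongs to both complexes. Its levels at 8 dpp were 18.8, 16.6 and 20.3 TPM. At 10 dpp they were 16.6, 19.8, 19.9, 19.3 and 19.4 TPM, at 12 dpp 19.7, 18.4, 24.9, 18.7 and 20.4 TPM and at 14 dpp 19.8, 20.1, 24.3, 27.0 and 25.7 TPM. The mice of 16 dpp had 39.4, 30.7, 28.1, 20.7 and 30.7 TPM and those of 18 dpp 39.0, 42.0, 38.5, 39.5 and 35.1 TPM. Levels were similar from 8 to 12 dpp, the mice of 16 dpp were spread widely and overlapped with those of 14 and of 18 dpp, and the mice of 18 dpp were again close together. The means of 8 and 18 dpp were 18.6 ± 1.89 and 38.8 ± 2.47 TPM, a ratio of 2.09 with no overlap (log2 fold change 1.03, SE 0.14, limma adjusted p = 1.7e-07).

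The other 3 subunit genes did not pass the test between 8 and 18 dpp. Rad51b, at the lowest level of the family, had means of 3.67, 3.45, 3.17, 3.37, 4.36 and 3.30 TPM over the 6 ages, Rad51d 11.6, 13.1, 12.4, 15.0, 13.3 and 12.8 TPM, and Xrcc3, the partner of RAD51C, 8.30, 10.2, 9.06, 9.06, 7.55 and 9.85 TPM. Their log2 differences were -0.13, 0.14 and 0.22. That of Rad51b became 0.0019 with median-of-ratios factors and 0.02 and 0.02 without mouse 1 of 8 dpp or mouse 3 of 18 dpp. That of Xrcc3 passed with mice 1 to 3 of each age alone (0.34). That of Rad51d was 0.30, past the threshold (limma adjusted p = 0.0174), with median-of-ratios factors and -0.0075 with quantile normalization.

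Of the 3 partners of the BRCA proteins, Bard1 rose and the other 2 did not pass. Bard1, which pairs with BRCA1, had means of 10.4, 9.36, 10.7, 11.2, 12.1 and 12.8 TPM (log2 fold change from 8 to 18 dpp 0.29, SE 0.12, limma adjusted p = 0.0376). Its mice of 8 and 18 dpp overlapped by a single value. The call was lost with quantile normalization (0.13), with no filter (limma adjusted p = 0.0630), with mice 1 to 3 of each age alone (0.0516), with these 2 ages alone (0.0935), without mouse 2 of 8 dpp (0.13, limma adjusted p = 0.389) and without mouse 1, 2 or 3 of 18 dpp (0.28, 0.26 and 0.29). With median-of-ratios factors the rise was 0.45. Palb2, which links BRCA1 to BRCA2, had 12.6, 12.4, 12.5, 13.8, 12.4 and 12.2 TPM, and its log2 difference of -0.03 became 0.14 with median-of-ratios factors and 0.10, 0.08, 0.06 and 0.0063 without mouse 1 or 3 of 8 dpp or mouse 3 or 5 of 18 dpp. Brip1, the helicase bound by BRCA1, had 8.69, 8.34, 8.92, 8.44, 8.27 and 7.44 TPM and a difference of -0.23, past the threshold with quantile normalization (-0.45) and with mice 1 to 3 of each age alone (-0.39).

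RAD54 proteins move along DNA with the use of ATP and RAD52 anneals single strands. Rad54b was the member of this group that rose from 8 to 18 dpp. Its means were 13.2, 10.7, 16.4, 17.1, 22.6 and 23.0 TPM over the 6 ages, with a low point at 10 dpp and steps up at 12 and 16 dpp (log2 fold change 0.75, SE 0.11, limma adjusted p = 6.0e-07), and the mice of 8 and 18 dpp did not overlap. Rad54b shares 35.8% of its exon bases with Fsbp on the same strand, which was listed at 0.606 TPM. Rad54l had 32.1, 33.9, 34.8, 38.4, 36.3 and 34.8 TPM, highest at 14 dpp, and differed among the ages by the F test (limma adjusted p = 0.0304) but not between 8 and 18 dpp (log2 difference 0.11, or 0.28 and past the threshold with median-of-ratios factors). The F test of Rad54l did not pass with quantile normalization (limma adjusted p = 0.0802), with the mouse number as a block (0.0721) or without mouse 2 or 3 of 8 dpp or mouse 1, 4 or 5 of 14 dpp (limma adjusted p = 0.0631, 0.0552, 0.0695, 0.0651 and 0.0657). Rad52 had 11.04, 10.2, 10.4, 11.9, 10.8 and 10.3 TPM, with a log2 difference of -0.11 that became 0.05 with median-of-ratios factors.

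BLM helicase and its partners RMI1 and RMI2 dissolve double Holliday junctions together with a topoisomerase. Rmi1 and Rmi2 rose while Blm did not pass the test. Rmi1 (ENSMUSG00000035367, chr13:58402248-58411148 on the plus strand) kept near its starting level until 12 dpp. In TPM, the 3 mice of 8 dpp had 18.6, 16.0 and 19.1. The 5 mice of 10 dpp had 21.3, 17.1, 17.0, 18.0 and 16.1, those of 12 dpp 15.6, 18.4, 20.9, 18.6 and 20.4 and those of 14 dpp 21.2, 20.2, 20.5, 24.5 and 23.0. At 16 dpp the levels were 30.5, 30.3, 22.7, 23.1 and 24.9, and at 18 dpp 43.6, 45.5, 41.1, 33.2 and 33. The mice of 18 dpp lay above those of every younger age, and mice 1 to 3 again above mice 4 and 5. Its means of 8 and 18 dpp were 17.9 ± 1.68 and 39.3 ± 5.86 TPM, a ratio of 2.20 (log2 fold change 1.08, SE 0.12, limma adjusted p = 9.6e-09).

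Rmi2 (ENSMUSG00000037991, chr16:10835059-10892966 on the plus strand) was the least abundant measured member. Mice 1 to 3 of 8 dpp had 1.66, 1.10 and 1.26 TPM. Mice 1 to 5 had 1.42, 1.40, 1.30, 1.49 and 2.07 TPM at 10 dpp, 1.54, 1.69, 1.36, 1.51 and 2.41 TPM at 12 dpp and 1.40, 1.64, 1.65, 1.99 and 1.78 TPM at 14 dpp. The last ages had 2.91, 2.26, 2.05, 1.97 and 2.06 TPM (16 dpp) and 1.98, 2.49, 3.41, 3.86 and 3.5 TPM (18 dpp). The highest levels were those of mice 3 to 5 of 18 dpp, mice 1 and 2 of that age overlapped with 16 dpp, and all 5 lay above the mice of 8 dpp. The means were 1.34 ± 0.288 and 3.05 ± 0.782 TPM, a ratio of 2.27 (log2 fold change 0.77, SE 0.17, limma adjusted p = 1.8e-04). Entry of Rmi2 in this test rests on mice 3 to 5 of 18 dpp, which alone reached 3 TPM. With quantile normalization the change was 0.42 (limma adjusted p = 0.0409), and on the log2(TPM + 3) scale it was 0.47. Blm had means of 21.8, 22.5, 19.5, 21.1, 20.4 and 23.3 TPM, and its log2 difference of 0.10 was 0.27, past the threshold, with median-of-ratios factors and -0.0042 with quantile normalization.

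Of the 5 genes of DNA end resection, Rbbp8, which encodes the CtIP protein that starts resection, was the gene that rose. It had means of 37.6, 37.0, 38.9, 41.1, 40.8 and 45.5 TPM (log2 fold change 0.28, SE 0.09, limma adjusted p = 0.00639) with no overlap of the mice of 8 and 18 dpp, and the change did not pass without mouse 2 of 8 dpp (0.18, limma adjusted p = 0.0975) and was 0.45 with median-of-ratios factors. The 3 genes of the MRN complex, which binds broken ends, moved little between 8 and 18 dpp. Mre11a had means of 29.9, 30.5, 28.01, 29.7, 28.1 and 30.6 TPM, Nbn 25.1, 22.8, 23.9, 25.8, 24.7 and 26.0 TPM and Rad50 24.0, 27.9, 26.1, 27.4, 24.2 and 21.8 TPM. Rad50 was highest at 10 dpp and lowest at 18 dpp, and differed by the F test (limma adjusted p = 0.00283), though not with median-of-ratios factors (limma adjusted p = 0.128). Exo1, a nuclease that extends resection, had 12.6, 14.1, 14.3, 15.9, 14.1 and 13.0 TPM with the highest level at 14 dpp, and differed by the F test (limma adjusted p = 0.0101), again not with median-of-ratios factors (limma adjusted p = 0.0789).

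The log2 differences from 8 to 18 dpp of Mre11a, Nbn, Rad50 and Exo1 were 0.03, 0.05, -0.13 and 0.04, none past the threshold. Each of these signs flipped under a scaling, to -0.06, -0.04 and -0.10 for Mre11a, Nbn and Exo1 with quantile normalization and to 0.04 for Rad50 with median-of-ratios factors. Rad50 passed the threshold with quantile normalization (-0.23), and Nbn and Exo1 with median-of-ratios factors (0.22 and 0.21). Relative to the median of all genes, Mre11a (0.12, 0.15 and 0.21), Nbn (0.14, 0.17 and 0.22) and Exo1 (0.13, 0.16 and 0.16) kept their sign in the values as given and under both scalings. With median-of-ratios factors that is nearly fixed in advance. The sign of Mre11a also changed without mouse 2 of 8 dpp (-0.03) or mouse 2 of 18 dpp (-0.03), and that of Exo1 without mouse 2 of 8 dpp (-0.02).

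Among the genes of joint molecule endonucleases, Slx4 and Eme1 rose. Slx4 (ENSMUSG00000039738, chr16:3979105-4003770 on the minus strand) encodes the scaffold that holds several structure-specific nucleases, and had the largest change of all members. Its levels at 8 dpp were 19.7, 17.2 and 17.8 TPM. At 10 dpp they were 27.6, 19.5, 23.9, 21.6 and 18.1 TPM, at 12 dpp 19.3, 22.3, 27.4, 24.5 and 26.7 TPM and at 14 dpp 37.7, 28.4, 31.9, 29.5 and 38.3 TPM. The mice of 16 dpp had 57.2, 38.6, 38.5, 42.3 and 44.0 TPM and those of 18 dpp 176, 169, 124, 68.5 and 73.5 TPM. The mice of 14 dpp lay above those of 12 dpp, those of 16 dpp above those of 14 dpp, and those of 18 dpp above those of 16 dpp. The spread was widest at 18 dpp, where mice 1 to 3 were well above mice 4 and 5, as they were in the summed pachytene and diplotene markers. The means were 18.2 ± 1.28 TPM at 8 dpp and 122 ± 50.7 TPM at 18 dpp, a ratio of 6.69 (log2 fold change 2.57, 95% confidence interval 2.11 to 3.03, limma adjusted p = 9.1e-11).

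Eme1, the partner of the nuclease MUS81, had means of 8.33, 8.76, 9.39, 11.5, 11.4 and 13.3 TPM (log2 fold change 0.61, SE 0.15, limma adjusted p = 6.6e-04) and no overlap between 8 and 18 dpp. Gen1, a resolvase of Holliday junctions, had 5.47, 6.36, 6.27, 7.51, 6.70 and 6.52 TPM, and its log2 difference of 0.21 was 0.36, past the threshold, with median-of-ratios factors and -0.02 with quantile normalization. Helq, a helicase linked to the BCDX2 complex, had 14.0, 14.2, 14.5, 15.0, 15.1 and 17.1 TPM and stood just short of the threshold (log2 difference 0.27, limma adjusted p = 0.0617). It passed with median-of-ratios factors (0.44), and without mouse 3 of 8 dpp (0.38), mouse 3 of 10 dpp (0.27), mouse 1 of 18 dpp (0.31) or mouse 3 of 18 dpp (0.32).

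Neighbouring ages show when these changes came. No member passed the test from 8 to 10 or from 12 to 14 dpp, 3 rose from 10 to 12 dpp and 3 from 14 to 16 dpp, and most calls lay between 16 and 18 dpp. Between 8 and 10 dpp limma called 0 of 32 members in either direction, against 0.977% of all genes higher and 0.226% lower, and at an unadjusted p under 0.05 Rad50 was higher (0.21) and Fancd2 (-0.30) and Rad54b (-0.29) lower. From 10 to 12 dpp 3 members rose, against 12.0% of all genes, and 0 fell, against 9.39% (limma). At an unadjusted p under 0.05, for which no share of all genes is at hand, 5 were higher and 2 lower. Rad54b rose by 0.57 on the log2 scale (limma adjusted p = 5.0e-05), with all mice of 12 dpp above those of 10 dpp. Fancg (0.59, limma adjusted p = 0.0130) and Fancc (0.45, limma adjusted p = 0.00288) rose too, with overlap of the mice. The rise of Fancg did not pass without mouse 3 of 12 dpp (0.47, limma adjusted p = 0.0529), with mice 1 to 3 of each age alone (0.117) or with these 2 ages alone (0.0565). Without that mouse Blm was lower at 12 than at 10 dpp (-0.29, limma adjusted p = 0.0305), the only member lower there, and with mice 1 to 3 of each age alone Xrcc3 was lower (-0.45, limma adjusted p = 0.0379).

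Between 12 and 14 dpp limma again called 0 members in either direction, against 0.157% of all genes higher and 0.0147% lower. At an unadjusted p under 0.05, 7 members were higher and 0 lower, with the largest differences in Slx4 (0.45) and Xrcc2 (0.34), for both of which the mice of 14 dpp lay above those of 12 dpp. No share of all genes at that unadjusted p is at hand to set beside these counts, and the median of all genes moved by 0.04. From 14 to 16 dpp 3 members rose, against 12.7% of all genes, and 0 fell, against 11.3% (limma, with 5 and 3 at an unadjusted p under 0.05). Fancg rose by 0.91 (limma adjusted p = 2.4e-04) and Rad54b by 0.37 (limma adjusted p = 0.00382), both with the mice of 16 dpp above those of 14 dpp. Rad51c rose by 0.33 with overlapping mice (limma adjusted p = 0.0434), a call that was lost without mouse 1, 2 or 3 of 14 dpp (0.27, 0.28, 0.34) or mouse 1, 2 or 5 of 16 dpp (0.22, 0.31, 0.31).

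With median-of-ratios factors 5 members were higher at 16 than at 14 dpp and 0 lower (all genes 66.3% higher, against 53.0% in the values as given), and with quantile normalization 3 were higher and 3 (Fancm, Rad50 and Exo1) lower, or 50% higher in place of 100% (all genes 41.6% higher). The rise of Rad51c was also lost with no filter (limma adjusted p = 0.114), with no trend in the variance (0.0514), with the mouse number as a block (0.0555) and with these 2 ages alone (0.148), and with mice 1 to 3 of each age alone Rmi1 (0.40) and Fanci (0.37) rose too. Rad50 was lower without mouse 1 of 12 dpp (-0.18, limma adjusted p = 0.0366) and Fancm without mouse 2 of 14 dpp (-0.27, limma adjusted p = 0.0170), each then the only member lower at 16 than at 14 dpp.

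Most changes came between 16 and 18 dpp. There 7 members rose, against 23.4% of all genes, and 2 fell, against 30.6% of all genes. Slx4 rose by 1.35 (SE 0.19, limma adjusted p = 4.2e-06), Fancg by 0.89 (limma adjusted p = 1.0e-04), Rmi1 by 0.56 (limma adjusted p = 8.1e-05), Xrcc2 by 0.42 (limma adjusted p = 0.00107) and Fancl by 0.42 (limma adjusted p = 0.00934). In each of these 5 the mice of 18 dpp lay above those of 16 dpp. Rad51c (0.39, limma adjusted p = 0.00650) and Fanci (0.22, limma adjusted p = 0.0465) rose with overlapping mice. Fance fell by 0.47 (log2 fold change -0.47, limma adjusted p = 0.00117) and Fancf by 0.37 (-0.37, limma adjusted p = 0.0285), also with overlap.

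Relative to the median change of all genes between these ages, which was -0.11, 27 of the 32 members were higher. With median-of-ratios factors, which moved that median by 0.14, 16 members rose and 1, Fance, fell (94.1% higher, against 77.8% in the values as given, and 63.0% against 43.4% of all genes). The fall of Fancf was lost without mouse 5 of 16 dpp (-0.27), mouse 1 of 18 dpp (-0.36) or mouse 2 of 18 dpp (-0.30), each time leaving 1 member lower. It was also lost with no filter (limma adjusted p = 0.0588), with mice 1 to 3 of each age alone (0.0910) and with these 2 ages alone (0.0575). With mice 1 to 3 of each age alone the rises of Fancl, Rad51c and Fanci did not pass either (limma adjusted p = 0.0512, 0.0759 and 0.295), and that of Fanci was then 0.14. The rise of Fanci was also lost with no filter (limma adjusted p = 0.0957), with the mouse number as a block (0.0637), without any 1 mouse of 18 dpp (limma adjusted p = 0.0599, 0.0886, 0.0577, 0.0558 and 0.0784), without mouse 3, 4 or 5 of 16 dpp (0.0927, 0.137 and 0.0741) and, at values from 0.0503 to 0.0517, without mouse 1 or 3 of 8 dpp, 2 of 10 dpp, 5 of 12 dpp or 3 of 14 dpp.

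Lists of related genes were set beside the members. Among all genes, 31.8% rose and 36.3% fell from 8 to 18 dpp. Of 20 other genes of the Fanconi pathway and of crosslink repair, 15 rose and 4 fell from 8 to 18 dpp, with a median log2 change of 0.72. Mad2l2, a subunit of polymerase zeta, rose from 27.1 ± 2.17 to 212 ± 59.6 TPM (log2 fold change 2.87, limma adjusted p = 1.4e-13). Wdr48, the cofactor of the USP1 deubiquitinase that acts on FANCD2, rose from 48.2 ± 3.12 to 188 ± 51.6 TPM (log2 fold change 1.90, limma adjusted p = 9.4e-12), and Ube2t, the conjugating enzyme that works with FANCL, rose from 48.1 ± 5.80 to 155 ± 15.8 TPM (log2 fold change 1.67, limma adjusted p = 3.0e-12). The falls included the nuclease gene Fan1, which went from 8.42 ± 0.462 to 4.63 ± 0.520 TPM (log2 fold change -0.75, limma adjusted p = 4.8e-05), and the translesion polymerase genes Rev3l, from 37.6 ± 1.71 to 25.4 ± 3.13 TPM (log2 fold change -0.56, limma adjusted p = 1.3e-05), and Rev1, from 63.6 ± 1.03 to 43.5 ± 1.59 TPM (log2 fold change -0.54, limma adjusted p = 1.5e-07). For these 6 genes the mice of 8 and 18 dpp did not overlap. The median of this list was above that of the members (0.21) and of all genes (-0.09), and the difference was not tested.

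Of 24 other genes of homologous recombination in dividing cells, 7 rose and 6 fell (median 0.08), or 13 rose with median-of-ratios factors. Atr, which encodes a checkpoint kinase, rose from 51.2 ± 8.64 to 162 ± 19.8 TPM (log2 fold change 1.65, limma adjusted p = 3.5e-11), Swi5, the partner of SFR1, from 284 ± 17.4 to 599 ± 50.1 TPM (log2 fold change 1.07, limma adjusted p = 1.2e-12), and Rpa1, a subunit of the single-strand binding complex, from 91.7 ± 2.69 to 181 ± 54.4 TPM (log2 fold change 0.92, limma adjusted p = 3.1e-06). Atm, the kinase of double-strand breaks, fell from 23.4 ± 2.28 to 12.9 ± 2.12 TPM (log2 fold change -0.82, limma adjusted p = 3.7e-07). Brcc3, a deubiquitinase of a BRCA1 complex, fell from 13.8 ± 1.24 to 7.80 ± 1.29 TPM (log2 fold change -0.76, limma adjusted p = 1.7e-05), and Brca1 itself from 21.4 ± 1.75 to 14.5 ± 0.253 TPM (log2 fold change -0.53, limma adjusted p = 3.6e-05). For none of these 6 genes did the mice of 8 and 18 dpp overlap.

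Genes used in meiotic recombination alone had the largest median change of the 4 related lists, which were not tested against each other. Of 26 listed 25 were measured, and 18 rose and 3 fell (median 1.26). Between 10 and 12 dpp 17 of the 25 rose, against 12.0% of all genes. Cntd1, a crossover factor, rose from 7.51 ± 1.72 to 148 ± 15.3 TPM (log2 fold change 4.14, limma adjusted p = 2.4e-16), Spo11, the enzyme that makes meiotic breaks, from 4.65 ± 1.11 to 51.5 ± 10.0 TPM (log2 fold change 3.21, limma adjusted p = 1.2e-14), and Msh4, which holds crossover intermediates, from 1.40 ± 0.372 to 16.4 ± 1.80 TPM (log2 fold change 2.86, limma adjusted p = 1.5e-14). Rec114, a cofactor of break formation, fell from 23.9 ± 4.83 to 14.5 ± 3.23 TPM (log2 fold change -0.69, limma adjusted p = 3.0e-04), Tex11, a crossover protein, from 71.5 ± 10.7 to 51.1 ± 8.97 TPM (log2 fold change -0.48, limma adjusted p = 3.5e-04), and Tex15, needed for the repair of meiotic breaks, from 105 ± 16.2 to 81.5 ± 7.85 TPM (log2 fold change -0.36, limma adjusted p = 0.0198), the last 2 with overlapping mice. The fall of Tex15 did not pass with median-of-ratios factors (-0.18, limma adjusted p = 0.174), nor without mouse 1 (-0.27) or mouse 3 (-0.31) of 8 dpp. With quantile normalization 5 genes of this list fell.

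Of 27 genes of DNA replication, 7 rose and 13 fell (median -0.24), or 11 rose with median-of-ratios factors. Gins1, a subunit of the replicative helicase, rose from 20.0 ± 2.92 to 52.1 ± 6.89 TPM (log2 fold change 1.33, limma adjusted p = 3.8e-08), Rfc2, a clamp loader subunit, from 56.5 ± 7.02 to 119 ± 18.6 TPM (log2 fold change 1.06, limma adjusted p = 9.4e-10), and the clamp gene Pcna from 172 ± 14.4 to 245 ± 5.66 TPM (log2 fold change 0.51, limma adjusted p = 6.3e-08). Tyms, which makes thymidylate, fell from 34.7 ± 3.59 to 15.8 ± 4.87 TPM (log2 fold change -1.13, limma adjusted p = 1.5e-06), the helicase gene Mcm2 from 117 ± 7.26 to 54.0 ± 8.08 TPM (log2 fold change -1.11, limma adjusted p = 3.4e-11), and the clamp loader gene Rfc5 from 60.4 ± 2.02 to 32.6 ± 5.46 TPM (log2 fold change -0.88, limma adjusted p = 1.9e-09). Here too the mice of 8 and 18 dpp did not overlap for any of the 6. The median of the members lay between those of the replication genes and of the meiosis-specific genes.

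Adult pachytene and diplotene spermatocytes were measured in a table normalised on its own, so levels are set side by side with no test. Of the 32 members, 25 had at least 3 TPM in all 4 adult samples, as did 55.7% of the genes of the juvenile table. All 4 adult samples lay above all 5 mice of 18 dpp for 7 members, against 22.3% of all genes, and below them for 18, against 53.3% of all genes. In the direction of this difference the members are near all genes. Of the pachytene and diplotene markers all 10 were at 3 TPM or more in the mean, with sums of 9825, 10095, 9979 and 9735 TPM. The spermatogonial sums were 32.2, 34.4, 36.1 and 30.8 TPM and the Sertoli sums 296, 389, 362 and 435 TPM, while the spermatid markers summed to 978, 862, 1092 and 1171 TPM. Leptotene and zygotene markers summed to 852, 786, 924 and 786 TPM and general germ cell markers to 2469, 2355, 2471 and 2412 TPM.

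Of the remaining cell types, Leydig markers summed to 206 to 269.8 TPM in adult samples, peritubular markers to 5.57 to 10.7 TPM and red blood cell genes to 5.38 to 8.59 TPM, with Hbb-bs at 0. Macrophage markers, with C1qa at 0, summed to 3.32 to 4.35 TPM and endothelial markers to 1.43 to 3.09 TPM. The part of these cells in the levels of the repair genes was not tested.

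Slx4 was the most abundant member in adult cells, with 268, 314, 264 and 297 TPM in the 4 samples and a mean of 286 ± 23.6 TPM, 2.34 times the mean of 18 dpp. Fancg had 174, 154, 169 and 178 TPM (1.80 times) and Rmi1 69.0, 68.3, 67.5 and 66.8 TPM (1.73 times). The genes with the 3 highest adult levels were thus among the 4 largest rises of the juvenile mice. Rad51c had 42.8, 56.7, 47.8 and 45.8 TPM (1.24 times), and Nbn (1.49 times), Mre11a (1.22 times) and Blm (1.19 times) were also above all mice of 18 dpp. Xrcc2, at 17.2, 19.7, 16.7 and 17.1 TPM, overlapped with 18 dpp, and Fancl, Fancd2, Fanci, Rad51d, Xrcc3 and Rbbp8 overlapped too.

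At the other end, Fance had 2.04, 2.06, 1.19 and 2.76 TPM (0.0746 times the mean of 18 dpp) and Fancf 0.35, 0.170, 0.3 and 0.450 TPM (0.0691 times). Both were lower at 18 than at 8 dpp already. Brip1 (0.380, 0.2, 0.640 and 0.450 TPM, 0.0561 times) and Rad51b (0.780, 0, 0.320 and 0.230 TPM, 0.101 times), neither past the test in juvenile mice, were low in adult cells as well. Brip1, Rad51b and Fancf had adult means under 1 TPM, and Fancb had 0.168 TPM. Rmi2, which rose in the juvenile mice, had 1.03, 0.980, 1.72 and 1.05 TPM, 0.392 times its mean of 18 dpp. Fanca had 24.4, 17.8, 20.2 and 18.2 TPM, and Rad54b, Eme1 and Fancc, which were higher at 18 than at 8 dpp, had 12.6, 6.02 and 15.7 TPM in the mean, below all mice of 18 dpp.

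The remaining members had adult means of 22.0 TPM (Rad54l), 12.2 TPM (Rad50), 10.3 TPM (Helq), 9.42 TPM (Bard1), 6.08 TPM (Palb2), 4.85 TPM (Exo1), 4.41 TPM (Fancm), 3.57 TPM (Rad52) and 2.00 TPM (Gen1). All of these lay below every mouse of 18 dpp. Among the related genes, Mad2l2 reached 578 TPM and Wdr48 430.4 TPM in adult cells, Atm 1.33 TPM and Brca1 1.96 TPM, and Mcm2 1.34 TPM.

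**Figure D4:**
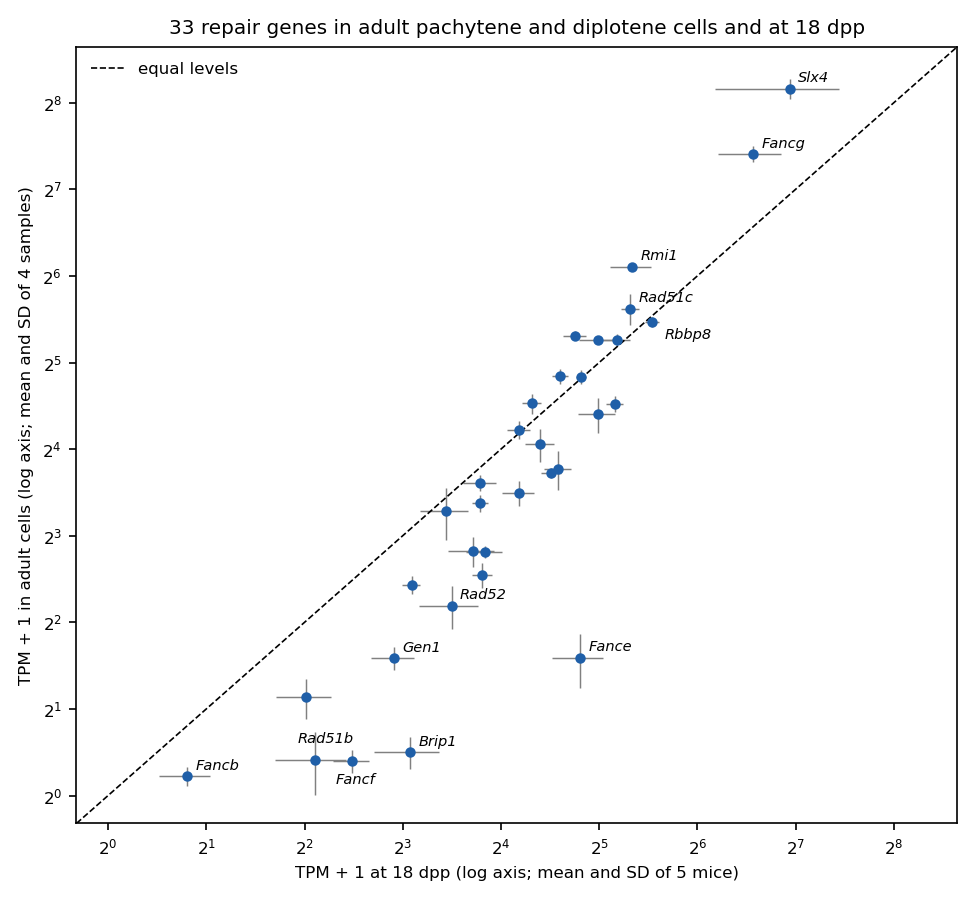
Mean level of each of 33 repair genes in the 4 adult samples (vertical axis, TPM + 1, log2 scale) against its mean in the 5 mice of 18 dpp (horizontal axis, same scale), with bars for the SD and a dashed line of equal levels. Slx4, Fancg and Rmi1 lie above the line, and Fance, Fancf, Brip1 and Rad51b lie far below it.

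The share of each transcript in its gene's TPM was compared between the 8 mice of the first 2 ages (8 and 10 dpp) and the 10 mice of the last 2 (16 and 18 dpp). The younger mice belong to the first set of libraries and the older mice to the second, so values of the ages between are given where they separate age from set. Of 74 transcripts of 19 members, limma called 0 with a change of at least 20 points, against 2.19% of all 26367 transcripts tested, and 0 reached that size at an unadjusted p under 0.05. At a change of at least 10 points, 9 transcripts of 5 members were called, against 6.32% of all transcripts. Shares within a gene depend on each other, so these 9 changes are not independent. The largest was that of Rad52 transcript ENSMUST00000162461, whose share went from 2.88% at 8 and 10 dpp to 22.1% at 16 and 18 dpp (19.2 points, SE 3.77, limma adjusted p = 0.00220). This transcript averaged 0.30 TPM at 8 and 10 dpp and 2.36 TPM at 16 and 18 dpp. Its entry in the test, at 1 TPM or more, thus rests on the older mice, in which it was higher. At 18 dpp its share was 31.0, 38.0, 20.5, 21.5 and 28.7% in the 5 mice, at 16 dpp 17.9, 2.40, 26.2, 13.5 and 21.1%, at 10 dpp 0, 0, 0, 0 and 14.1% and at 8 dpp 0.794, 0 and 8.21%. The younger and older mice overlapped, and the mice of 12 dpp (0, 28.1, 0, 16.1 and 0%) and 14 dpp (16.8, 31.6, 0, 18.1 and 3.53%) were spread over much of the range. The change reached 20 points without mouse 5 of 10 dpp (20.8), mouse 2 of 16 dpp (21.4) or mouse 4 of 16 dpp (20.2).

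Rad54b transcript ENSMUST00000095145 went from 27.6% at 8 and 10 dpp to 10.2% at 16 and 18 dpp (-17.4 points, SE 2.61, limma adjusted p = 2.2e-04), with mice between 16.1% and 42.2% at the younger ages and between 4.13% and 14.2% at the older ages. The groups did not overlap, and within the first set of libraries all mice of 12 dpp (9.72, 13.8, 13.8, 13.6 and 10.6%) were already below those of 8 and 10 dpp. The main Rad54b transcript ENSMUST00000070755 went from 58.7% at 8 and 10 dpp to 71.0% at 16 and 18 dpp (12.3 points, SE 2.81, limma adjusted p = 0.00655). Its younger mice (48.3% to 66.0%) and older mice (65.1% to 78.7%) overlapped, and the mice of 14 dpp had 69.5, 61.6, 60.2, 72.0 and 62.5%. In Blm, transcript ENSMUST00000081314 went from 99.2% at 8 and 10 dpp to 85.7% at 16 and 18 dpp (limma adjusted p = 0.0338) while ENSMUST00000170315 went from 0.767% at 8 and 10 dpp to 14.3% at 16 and 18 dpp, with 23.8, 21.01, 39.0, 18.2 and 8.21% of Blm TPM in the 5 mice of 18 dpp and 0 in every mouse of 12 and 14 dpp. The latter averaged 0.17 TPM at 8 and 10 dpp and 3.30 TPM at 16 and 18 dpp, so its entry in the test rests on the older mice. Its increase from 14 to 18 dpp thus lies within the second set of libraries, and the younger and older mice overlapped at 0. This gene as a whole did not pass the test between 8 and 18 dpp.

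In Fancl, transcript ENSMUST00000004120 went from 54.5% at 8 and 10 dpp to 71.3% at 16 and 18 dpp (limma adjusted p = 0.0482) and ENSMUST00000109509 went from 40.9% at 8 and 10 dpp to 24.5% at 16 and 18 dpp (limma adjusted p = 0.0335). In Helq, ENSMUST00000044684 went from 63.4% at 8 and 10 dpp to 80.1% at 16 and 18 dpp (limma adjusted p = 0.0319) and ENSMUST00000139203 from 15.8% at 8 and 10 dpp to 5.09% at 16 and 18 dpp (limma adjusted p = 0.00750). The latter averaged 2.29 TPM at 8 and 10 dpp and 0.807 TPM at 16 and 18 dpp, so its entry in the test rests on the younger mice. The shares of these Fancl and Helq transcripts overlapped between the younger and the older mice. At 14 dpp, in the second set of libraries, Fancl ENSMUST00000004120 had 52.1, 69.2, 57.6, 42.0 and 52.4%, and ENSMUST00000109509 41.2, 26.0, 42.4, 55.0 and 45.3%. Helq ENSMUST00000044684 had 67.6, 74.1, 70.4, 62.2 and 67.9% there, and ENSMUST00000139203 20.6, 4.63, 14.9, 8.88 and 18.9%. Fancg transcript ENSMUST00000132273 was also past the threshold, at a change under 10 points (from 2.99% at 8 and 10 dpp to 12.2% at 16 and 18 dpp). It averaged 0.575 TPM at 8 and 10 dpp and 8.95 TPM at 16 and 18 dpp, so its entry in the test rests on the older mice. The 7 Slx4 transcripts tested kept their shares within 10 points.

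**Figure D5:**
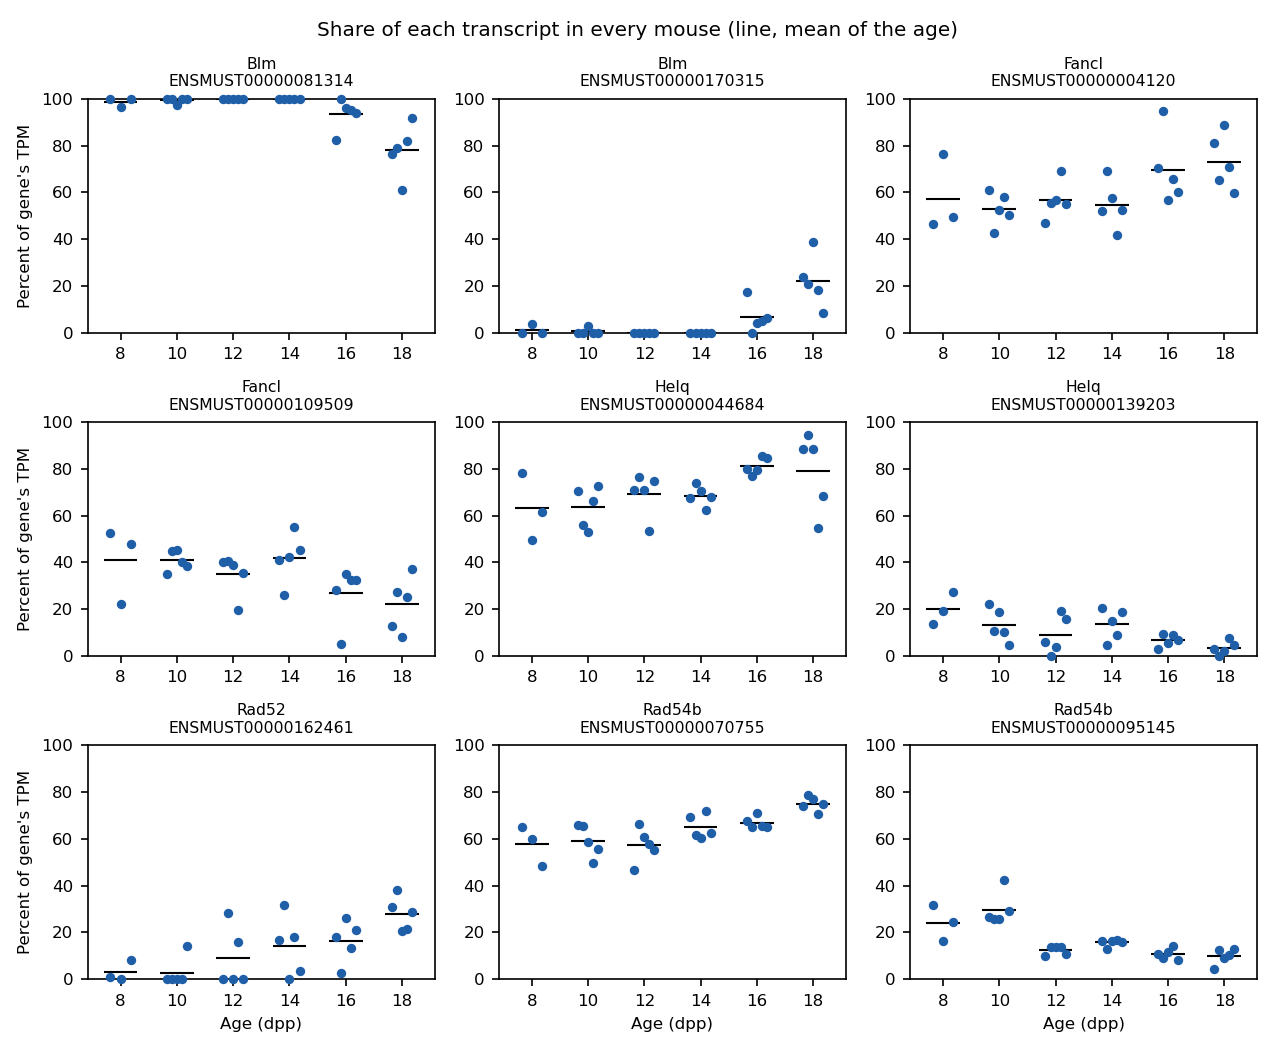
Percent of a gene's TPM held by each of 9 transcripts of Rad54b, Fancl, Blm, Helq and Rad52 in every mouse (points) by age in dpp, with the mean of each age as a line. Rad54b transcript ENSMUST00000095145 is highest at 8 and 10 dpp, and the Rad52 transcript and Blm transcript ENSMUST00000170315 are highest at 18 dpp.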

How the data were processed

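RNA-seq libraries (TruSeq, poly-A, 100 bp paired-end reads) of 28 juvenile mice and 4 adult samples were aligned by the authors with Bowtie 1.0.0 to transcripts of Ensembl 75, NONCODE version 4 and 214 piRNA precursors (mm10), and RSEM 1.2.8 gave the deposited values in TPM. The deposited gene table turned out to hold exp(log2(TPM + 1)) - 1 in place of the TPM that had been assumed, and its values were converted back to TPM. Converted values were checked against summed transcripts, and 20288 genes lay within 0.2 TPM and 80 outside, no listed gene among these. Each mouse's TPM summed to between 990305 and 993726 in that table. A deposited transcript table (162243 transcripts of 85539 genes) gave shares of transcripts, and a deposited adult table (85537 genes), in TPM and normalized separately, was compared by level alone. Further columns of the deposited tables, 2 in number, hold the authors' own assignment to substages and were not used.

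Symbols, coordinates and overlaps were taken from GENCODE M21 (GRCm38). A single limma model (version 3.58.1, R 4.3.3) of log2(TPM + 1) with a variance trend covered the 6 ages, with Benjamini-Hochberg adjustment over all genes. Transcript shares were fitted with limma where the gene averaged 3 TPM and the transcript 1 TPM or more. The model was also run on simulated data, and no result given here rests on that run. Tables and figures were made with Python 3.11.15 (pandas 2.3.3, numpy 2.4.6, matplotlib 3.10.9, scipy 1.17.1). TPM holds no counts, so depth and the precision it gives are unknown. Samples were grouped by the age in their labels, and the mice of 14 dpp, whose numbers in titles and descriptions differ, are called mice 1 to 5 in the order of the titles.

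All 33 genes are accounted for. Values of every mouse are given for the genes past the threshold between 8 and 18 dpp with the largest increases (up to 6) and decreases (up to 6) and for the genes with the largest change between neighbouring ages in each direction, and the others by means, ranges or counts. Of each related list, genes past the threshold between 8 and 18 dpp are named, up to 3 with the largest increase and up to 3 with the largest decrease. The listed genes and the related and marker lists were chosen with earlier results of these data known. Alternatives were other pseudocounts (0.1 and 3), filters, summed transcripts, median-of-ratios and quantile scaling, no variance trend, mice 1 to 3 of each age alone, a covariate for mice 1 to 3 against mice 4 and 5, the mouse number as a block, the compared ages alone, a change of 10 points in shares, 1 TPM in adult cells, and leaving out each mouse. Leaving out each adult sample and the counts of related lists under each alternative were added after seeing the data.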

Additional observations from a re-analysis of the deposited data

Results flagged for a closer look

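In 10 of 198 groups of 4 or 5 samples (5.05%), 1 sample lay far from the others on the log2(TPM + 1) scale, judged by its gap to the nearest other sample over the whole range. Chance gives about 1 in 20 groups.

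Among the juvenile mice, Fancg was 33.4 TPM in mouse 5 of 14 dpp against 23.2 to 24.8 TPM in the others, and Eme1 in the same mouse was 14.8 TPM against 10.1 to 11.2 TPM. Fancm was 6.61 TPM in mouse 5 of 18 dpp (others 7.48 to 7.86 TPM). At 10 dpp, Rad51b was 2.17 TPM in mouse 3 (others 3.49 to 3.96 TPM), Rad51c 16.6 TPM in mouse 1 (others 19.3 to 19.9 TPM) and Rmi2 2.07 TPM in mouse 5 (others 1.30 to 1.49 TPM). At 16 dpp, Palb2 was 9.17 TPM in mouse 5 (others 12.8 to 14.0 TPM) and Brip1 6.05 TPM in mouse 4 (others 8.31 to 9.38 TPM).

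In adult cells, Fancc was 12.4 TPM in sample 2 (others 16.6 to 16.9 TPM) and Rmi2 1.72 TPM in sample 3 (others 0.980 to 1.05 TPM).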

How the results depend on the processing

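Of the 17 members called between 8 and 18 dpp, 12 kept their call and direction under every alternative and with every mouse left out (Slx4, Fancg, Xrcc2, Rmi1, Rad51c, Rmi2, Rad54b, Eme1, Fanci, Fancl, Fancc and Fance). Among them, Rmi2 entered the gene table through mice of 18 dpp alone, where it was highest. Of the 15 members not called, 11 changed sign somewhere, and 9 of these 11 kept their sign relative to the median of all genes under both scalings. With median-of-ratios factors the sign relative to that median is nearly fixed in advance. Pseudocounts of 0.1 and 3, a filter over 3 mice, summed transcripts, no variance trend and a covariate for mice 1 to 3 against mice 4 and 5 (not the set of libraries) changed no call between 8 and 18 dpp. With the mouse number as a block, 14 members were higher and 3 lower at 18 than at 8 dpp, 2 higher at 16 than at 14 dpp and 18 differed among ages. The block ended the calls of Rad51c at 16 against 14 dpp (limma adjusted p = 0.0555), of Fanci at 18 against 16 dpp (0.0637) and of Rad54l in the F test (0.0721). The numbers did not pair mice, since correlations of deviations between mice of the same number ran from -0.248 to 0.253.

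With median-of-ratios factors 5 members were higher at 16 than at 14 dpp, 16 higher and 1 lower at 18 than at 16 dpp, and 1 lower at 18 than at 8 dpp. Log2 differences from 8 to 18 dpp then turned for Fancm (0.12), Rad51b (0.0019), Palb2 (0.14), Rad52 (0.0529) and Rad50 (0.0385). In the related lists 13 mitotic recombination and 11 replication genes were higher. With quantile normalization 3 members were lower at 16 than at 14 dpp and 6 lower at 18 than at 8 dpp. Differences turned for Rad51d (-0.0075), Blm (-0.0042), Mre11a (-0.0558), Nbn (-0.0428), Exo1 (-0.10) and Gen1 (-0.0211), and 5 meiosis-specific genes were lower. With mice 1 to 3 alone 1 member was lower at 12 than at 10 dpp and 5 higher at 16 than at 14 dpp, and Fancm turned to 0.0114. With no variance trend 1 was lower at 16 than at 14 dpp. With no filter 1 was lower at 18 than at 16 dpp and 1 at 18 than at 8 dpp. With the 2 compared ages alone 1 was lower at 18 than at 16 dpp. A change of 10 points in shares gave 9 transcripts in place of 0. The cause of these shifts was not tested.

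With each mouse left out in turn, members lower at 12 than at 10 dpp ran from 0 to 1, at 16 than at 14 dpp from 0 to 1, at 18 than at 16 dpp from 1 to 2 and at 18 than at 8 dpp from 1 to 3, and transcripts with changed shares from 0 to 1. Log2 differences ran from -0.43 to -0.30 for Fanca, -0.46 to -0.33 for Fancf, 0.21 to 0.38 for Fancd2, 0.13 to 0.39 for Bard1, 0.18 to 0.34 for Rbbp8, 0.22 to 0.38 for Helq, -0.49 to -0.27 for Tex15, -0.30 to 0.0204 for Rad51b, -0.27 to 0.10 for Palb2, -0.0333 to 0.0823 for Mre11a and -0.0213 to 0.0916 for Exo1. The cause was not tested. Without adult sample 2, 26 members in place of 25 had at least 3 TPM in all remaining adult samples, and leaving out any other adult sample left 25. At 1 TPM in all 4 samples the count was 28.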
